A study of Caenorhabditis elegans with 4 samples.

Results

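The anaphase-promoting complex is a multi-subunit ubiquitin ligase of dividing cells. It attaches ubiquitin to securin, which frees separase to cut the cohesin that holds chromosomes together, and to the B-type cyclins, whose loss ends the division. A scaffold carries a catalytic pair and an arm built of proteins with tetratricopeptide repeats (TPR), and an activator, of the CDC20 or the CDH1 kind, brings the substrate to the core and helps to switch the complex on. In *C. elegans* it is best known from oocytes and one-cell embryos, where loss of a core subunit arrests meiosis at metaphase, and it is needed for the mitoses of the germline as well.

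The set described here consists of 10 genes, chosen by name from the 20181 gene rows of a count table. There are 8 core subunits. They are the scaffold genes *mat-2* (APC1) and *emb-30* (APC4), the catalytic pair *apc-2* and *apc-11*, the TPR genes *mat-1* (CDC27), *emb-27* (CDC16) and *mat-3* (CDC23), and the substrate-recognition gene *apc-10*. The other 2 genes are the activators *fzy-1* (CDC20) and *fzr-1* (CDH1). All 10 genes had a row, none had a count of 0 in any of the 4 libraries, and all 10 passed the filter on low counts.

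RNA was sequenced from gonads dissected from young adults of the wild-type strain N2 (2 libraries) and from whole young adults carrying the *glp-4(bn2)* mutation (2 libraries), each library made from a pool of worms or gonads. The series set out to define transcripts of the germline and of the soma. The *glp-4(bn2)* allele is temperature-sensitive, and at the restrictive temperature its carriers form very few germ cells. The labels give no growth temperature. The groups differ in genotype as well as in tissue, and these differences cannot be told apart. A dissected gonad also holds its somatic sheath, and a *glp-4* worm keeps the somatic gonad.

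Library totals ranged from 19538620 to 25624824 counts. The labelled tissues were compared with markers of their cells, in counts per 1000000 counts of a library (CPM, adjusted for library composition by TMM). The 9 germ cell markers were all higher in gonads, with summed levels of 8567 and 8764 CPM against 132 and 122 CPM in whole worms. Intestinal markers summed to 179 and 135 CPM in gonads and to 33194 and 40576 CPM in whole worms, and body wall muscle markers to 157 and 151 CPM against 9852 and 11216 CPM. Pharynx markers summed to at most 0.902 CPM in gonads, and hypodermis markers to at most 3.84 CPM with *dpy-7* and *rol-6* at 0 counts. Neuron markers summed to 57.2 and 53.9 CPM in gonads, mostly from *snb-1* (44.7 and 41.4 CPM), against 252 and 273 CPM. On the log2 scale, gonad minus whole worm, *snb-1* was at -0.71 and *unc-119* at -0.41. *unc-13*, *rab-3* and *unc-31* were at -4.92, -5.04 and -4.07. The 6 sheath and spermatheca markers had 555 and 582 CPM in gonads against 488 and 531 CPM in whole worms, most of it from *fln-1*. *inx-8* was higher in gonads (68.6 and 58 CPM against 23.4 and 26.2 CPM in whole worms). *ceh-18* (1.66 and 1.56 CPM in gonads against 64 and 72.5 CPM), *fkh-6* and *lim-7* were higher in whole worms. On the log2 scale, gonad minus whole worm, *fln-1* was at 0.34 and *inx-9* at 0.43, and the list median was -0.57. The 5 sperm markers summed to 64.8 and 70.9 CPM in gonads and to 3.80 and 5.19 CPM in whole worms, mostly from the regulator *spe-44* (58.1 and 65.1 CPM in gonads), with *spe-38* at 0 counts in every library and *spe-9* at 1 and 3 counts in gonads. Whether the duplicates were separate cultures is not in the labels, and p-values therefore cover the spread of these libraries alone, which may be technical.

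All but 1 of the 10 genes were gonad-enriched, that is, at least 2-fold higher in gonads at an adjusted p under 0.05. The count was 9 of 10, where 30.9% of the 13101 genes tested were gonad-enriched and 53.1% were enriched in whole worms. At any fold, all 10 passed the test in the direction of gonads (36.4% of tested genes did), and at a fold of at least 4 the count was 6 (19.9% of tested genes). The median log2 fold change of the 10 genes, as gonad minus whole worm, was 3.15, against -1.50 over all tested genes. The differences ran from 0.80 for *fzr-1* to 6.33 for *fzy-1*, so the activators stood at the ends of the range and the core subunits between them. CPM values of the groups did not overlap for any of the 10 genes, which also held, in the direction of gonads, for 38.2% of all tested genes. In bulk tissue, fewer cells of a type and less RNA per cell cannot be told apart.

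**Figure D1:**
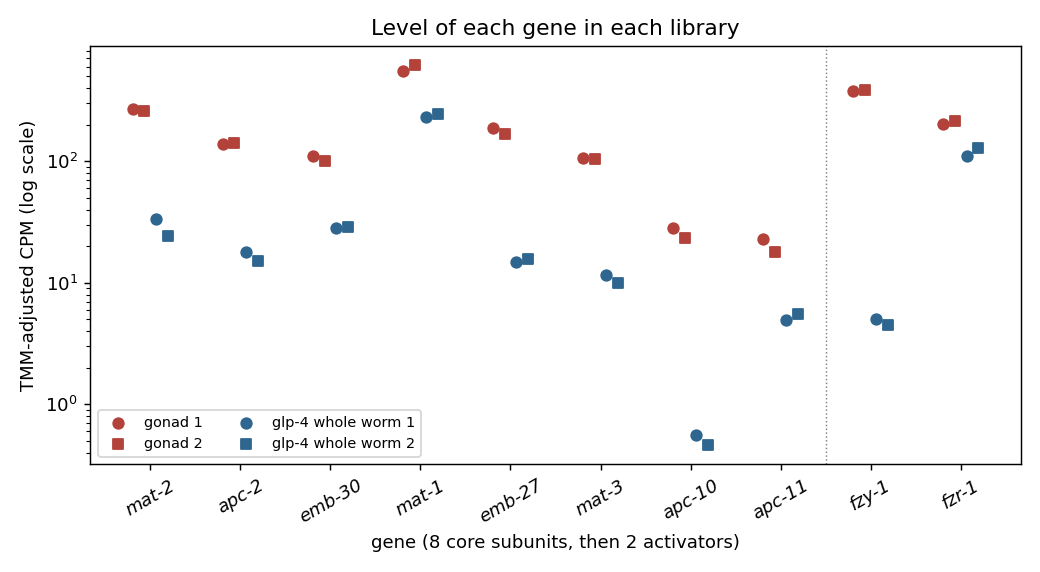
TMM-adjusted CPM on a log scale for the 8 core subunits and 2 activators, with 1 point for each of the 2 gonad and 2 *glp-4* whole-worm libraries. Every gonad point lies above both whole-worm points of its gene, with the widest gap for *fzy-1* and the narrowest for *fzr-1*.

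The activators differed most from each other. *fzy-1*, the CDC20-type activator that works in mitosis and meiosis and is the target of the spindle checkpoint (WBGene00001511, chromosome II, 5500770 to 5503912), reached 379 and 388 CPM in gonads against 5.05 and 4.53 CPM in whole worms. Both whole-worm values lie far below the gonad values. Its log2 fold change was 6.33 ± 0.17 (standard error, SE), an 80.2-fold difference (adjusted p = 9.48e-18, quasi-likelihood test of edgeR, Benjamini-Hochberg adjustment), and 2.98% of all tested genes differed more steeply in that direction.

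*fzr-1*, the CDH1-type activator, acts in late division and in G1 and is known in the worm for restraining cell division in somatic lineages together with the retinoblastoma-like gene *lin-35* (WBGene00001510, chromosome II, 9640156 to 9644466). It had 202 and 212 CPM in gonads against 109.8 and 128 CPM in whole worms. The groups are separate but close. The log2 fold change of 0.80 ± 0.13 (SE), or 1.74-fold, passed the test (adjusted p = 1.03e-05, edgeR's quasi-likelihood test) but not the fold minimum. Along 2.24% of its exon length lies a gene on the opposite strand, ZK1307.7, which had at most 36 counts in a library.

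Levels of different genes were compared per length, as TPM (transcripts per 1000000 transcripts) computed with annotated exon lengths. In gonads *fzy-1* stood above *fzr-1*, by 3 and 2.92 times in the libraries. In whole worms the order was turned around, with *fzr-1* 13.6 and 17.8 times above *fzy-1*. The ratio of *fzy-1* to *fzr-1* therefore differed by 46.1-fold between the groups. This ratio is taken within a library and does not depend on how libraries were scaled. In an exact two-sided permutation test over libraries it gave p = 0.333, which is the smallest p that 2 against 2 libraries allow. Set against the median TPM of the 8 core subunits, *fzy-1* was 3.72 and 3.90 times as high in gonads and 0.359 and 0.338 times as high in whole worms. For *fzr-1* the same ratio was 1.24 and 1.34 in gonads and 4.90 and 6.02 in whole worms.

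**Figure D2:**
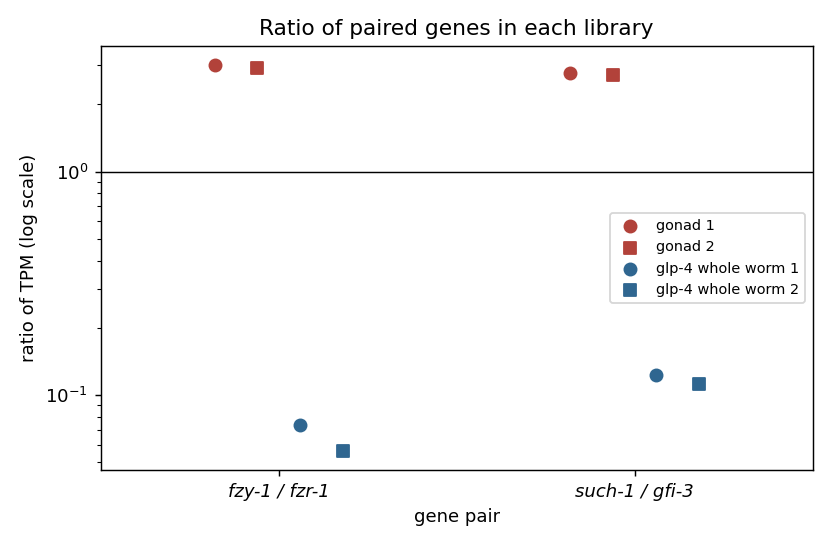
Ratio of TPM on a log scale in each of the 4 libraries for the activators (*fzy-1* over *fzr-1*) and for the APC5-like genes (*such-1* over *gfi-3*), with a line at equal levels. In both pairs the 2 gonad libraries lie above the line and the 2 whole-worm libraries below it.

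All 8 core subunits were gonad-enriched, and their median log2 fold change was 3.15, beside 30.9% gonad-enriched and a median of -1.50 over all tested genes. They fell into 3 ranges, described here after their values were seen. *apc-10* differed most, 4 genes (*emb-27*, *mat-3*, *mat-2* and *apc-2*) lay close together, and *apc-11*, *emb-30* and *mat-1* differed least. No test was made of the differences between subunits.

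*apc-10* encodes a Doc1-type subunit that helps the core to hold its substrate (WBGene00000144, chromosome V, 10425362 to 10426353). It had 28.1 and 23.2 CPM in gonads against 0.556 and 0.464 CPM in whole worms. Its log2 fold change was 5.65 ± 0.27 (SE), or 4.79 with limma on the deposited log2 table. The whole-worm level rests on 12 counts in each library, and the exact Poisson 95% interval of their sum of 24 runs from 15.4 to 35.7 counts, which covers counting error only.

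The scaffold genes differed by unequal amounts. *mat-2*, which encodes the largest subunit of the complex (WBGene00003133, chromosome II, 11112719 to 11120805), had 271 and 259 CPM in gonads against 33.4 and 24.2 CPM in whole worms. The log2 fold change was 3.20 ± 0.16 (SE). *emb-30*, the APC4 subunit, whose mutants arrest in meiosis I (WBGene00001284, chromosome III, 9435507 to 9441460), had 109 and 100.2 CPM in gonads against 28.4 and 28.6 CPM in whole worms. Its difference was smaller, at 1.88 ± 0.14 (SE) on the log2 scale.

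The catalytic pair also split. The cullin-like subunit gene *apc-2* (WBGene00000143, chromosome III, 8080629 to 8083701) had 139 and 140.4 CPM in gonads against 17.8 and 15 CPM in whole worms, 8.54-fold apart. The RING-finger subunit gene *apc-11*, which binds the ubiquitin-conjugating enzyme (WBGene00000145, chromosome III, 4593863 to 4594424), had 22.7 and 18 CPM in gonads against 4.91 and 5.57 CPM in whole worms. It was 3.86-fold higher in gonads. The exon length of *apc-11* is short, at 469 bp, and CPM makes no allowance for length. Per length it stood near the other subunits, at 65.8 ± 11.8 TPM (SD, n = 2) in gonads and 17.5 ± 0.519 TPM in whole worms.

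Among the TPR genes, *emb-27* and *mat-3* lay near each other and *mat-1* differed less. *emb-27* (WBGene00001281, chromosome II, 8159865 to 8162170) had 188 and 167 CPM in gonads against 14.7 and 15.8 CPM in whole worms. The log2 fold change was 3.54 ± 0.14 (SE). *mat-3* (WBGene00003134, chromosome III, 475454 to 482325) had 105 CPM in each gonad library and 11.5 and 9.95 CPM in whole worms, a difference of 3.30 ± 0.15. The end of *emb-27* overlaps the end of *pch-2*, on the opposite strand, along 3% of its exon length.

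*mat-1*, the CDC27 subunit to which activators dock in other organisms, was the most abundant core gene in both groups (WBGene00003132, chromosome I, 5123915 to 5127201). It had 549.9 and 618 CPM in gonads against 229 and 244 CPM in whole worms. The values are separate, with a log2 fold change of 1.31 ± 0.14 (SE), or 2.47-fold. Its adjusted p was the highest of the core subunits (adjusted p = 2.92e-08, edgeR's quasi-likelihood test). Along 2.67% of its exon length it overlaps Y110A7A.9 on the opposite strand, which had 67.7 and 70.6 CPM in whole worms. The libraries are not stated to keep strand, so reads of that stretch could come from either gene.

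**Figure D3:**
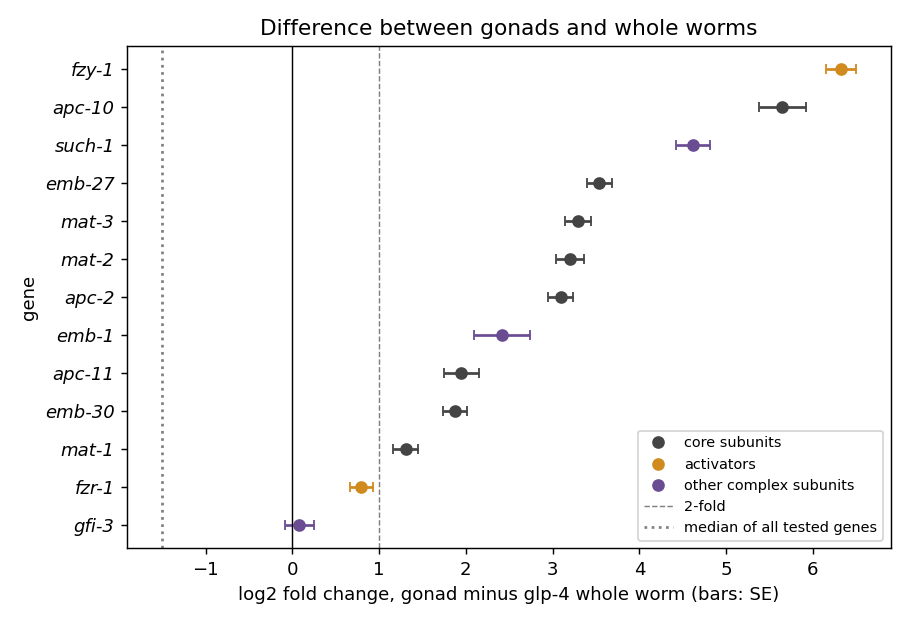
Log2 fold change of gonad minus *glp-4* whole worm, with SE bars, for the 10 genes and 3 further subunits, beside lines at 0, at 2-fold and at the median of all tested genes. Values run from 0.08 for *gfi-3* and 0.80 for *fzr-1* up to 6.33 for *fzy-1*.

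Per length, the order of the levels was not the same in both groups. In gonads *mat-1* (332 ± 22.7 TPM, SD, n = 2) and *fzy-1* (309.6 ± 0.539 TPM) led, followed by *emb-27* at 133 ± 13 TPM and *fzr-1* at 105 ± 2.13 TPM. Then came *apc-2* at 91.7 ± 0.781, *mat-2* at 87.2 ± 3.88 and *mat-3* at 75.3 ± 1.22 TPM. At the foot of the order the libraries of *apc-11* overlapped those of *apc-10* (52.9 ± 7.85 TPM), and these overlapped those of *emb-30* (49.1 ± 3.77 TPM), so those neighbours did not differ beyond their spread.

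In whole worms *mat-1* again led, at 139 ± 2.06 TPM (SD, n = 2), with *fzr-1* second at 62.2 ± 3.16 TPM. *apc-11* and *emb-30*, at 13.8 ± 0.755 TPM, came next. They were followed by *emb-27* (11.8 ± 0.126 TPM), *apc-2* (11.2 ± 2.01 TPM), *mat-2* (9.89 ± 2.81 TPM) and *mat-3* (7.97 ± 1.28 TPM). The libraries of *emb-27*, *apc-2* and *mat-2* each overlapped those of the next gene in this order, and those of *mat-3* did not. *fzy-1* was ninth at 4.01 ± 0.547 TPM and *apc-10* last at 1.09 ± 0.203 TPM. Thus *fzy-1*, second in gonads, stood second from the end in whole worms.

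The summed TPM of the 8 core subunits was 901 and 873 in gonads and 218 and 206 in whole worms, a ratio of the means of 4.18. The composition of that sum differed between the groups. *mat-1* made up 35.1% and 39.9% of it in gonads and 64.3% and 66.8% in whole worms. *emb-27* went from 14.9% ± 1.14 (SD, n = 2) in gonads to 5.55% ± 0.169 in whole worms, and *apc-10* from 5.95% ± 0.754 to 0.513% ± 0.0745. The shares of *mat-2*, *apc-2* and *mat-3*, between 8.49% and 10.3% on average in gonads, lay between 3.75% and 5.25% in whole worms. *apc-11* held 7.41% ± 1.16 and 8.26% ± 0.585, libraries that overlap, and *emb-30* 5.53% ± 0.303 and 6.50% ± 0.0885, which do not. These are shares of RNA and not of protein or of assembled complex.

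**Figure D4:**
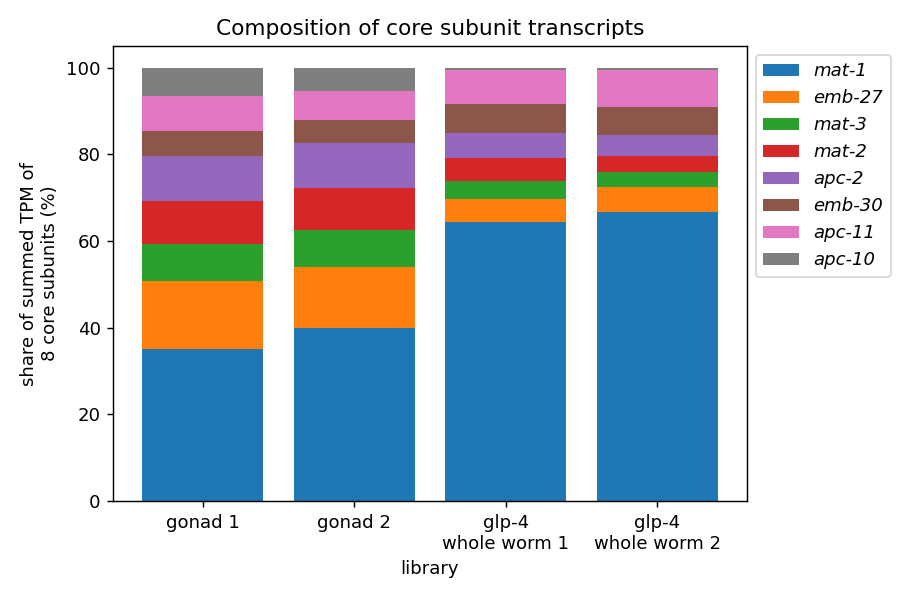
Share of each core subunit, in percent, of the summed TPM of the 8 core subunits, as stacked bars for each of the 4 libraries. The *mat-1* segment takes 35.1% and 39.9% of the gonad bars and 64.3% and 66.8% of the whole-worm bars, and the *apc-10* segment is barely visible in whole worms.

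Whole worms kept very different portions of the gonad level. In CPM the whole-worm level was 1.25% of the gonad level for *fzy-1* and 1.99% for *apc-10*. The 9 germ cell markers had 0.569% to 5%, with a median of 1.14%, so these 2 genes lay inside the range of the markers. The other 8 genes of the set lay above it. Outside the set, the further subunit gene *such-1*, described below, was inside the marker range at 4.08%. *emb-27*, *mat-3*, *mat-2* and *apc-2* had 8.59% to 11.7%, *apc-11* and *emb-30* had 25.8% and 27.2%, *mat-1* had 40.4% and *fzr-1* had 57.6%. How much of each whole-worm level came from remaining germ cells was not tested.

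**Figure D5:**
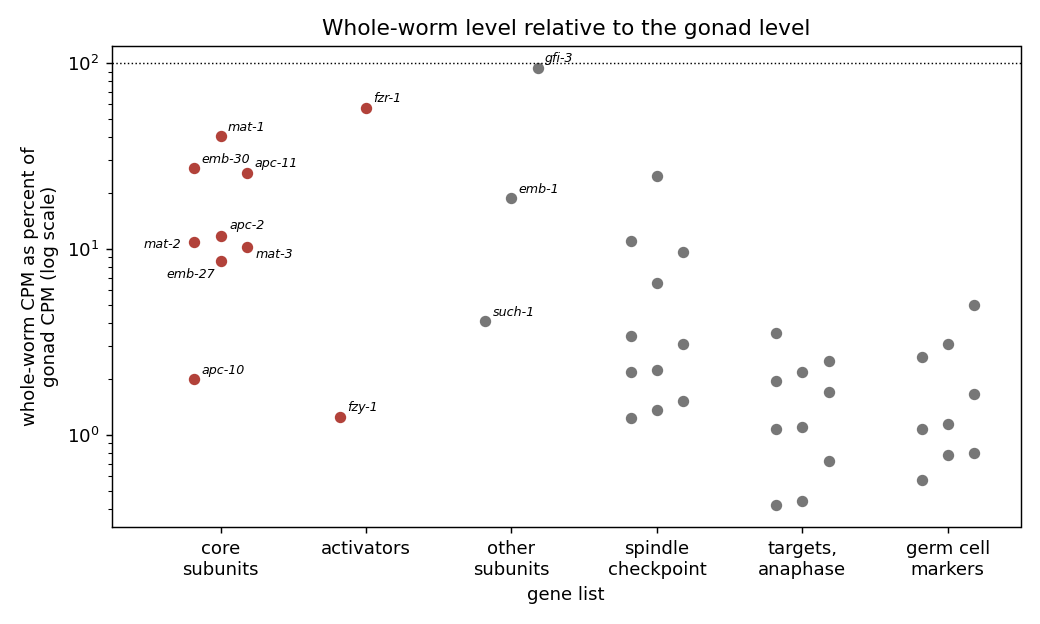
Whole-worm CPM as a percentage of gonad CPM, on a log scale, with 1 point per gene for the core subunits, the activators, other subunits, spindle checkpoint genes, targets and anaphase genes, and germ cell markers. *fzy-1* and *apc-10* lie within the range of the germ cell markers, from 0.569% to 5%, and the other 8 genes of the set lie above it. Among the other subunits, *such-1* lies within that range at 4.08%.

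Of 3 further subunits, *such-1* and *emb-1* were gonad-enriched and *gfi-3* was not. *such-1* and *gfi-3* both encode APC5-like subunits. *such-1* (WBGene00013443, chromosome III, 11512862 to 11523759) had 55.7 and 54 CPM in gonads against 2.50 and 1.97 CPM in whole worms. The log2 fold change was 4.62 ± 0.19 (SE). An opposite-strand gene covers 8.1% of its exon length. *gfi-3* (WBGene00001583, chromosome X, 14480572 to 14484702) had 21.5 and 21.3 CPM in gonads against 21.6 and 18.8 CPM in whole worms, values that overlap. Its log2 fold change of 0.08 ± 0.16 (SE) did not pass the test (adjusted p = 0.628, edgeR's quasi-likelihood test) and had the other sign in some alternatives, from -0.08 to 0.17. Per length *such-1* was 2.76 and 2.70 times as high as *gfi-3* in gonads, and *gfi-3* was 8.13 and 8.95 times as high as *such-1* in whole worms. This ratio was chosen after the values were seen. Its exact two-sided permutation p was again 0.333, the smallest possible, with no adjustment made over the 2 ratios tested. The sum of both was 46.9 and 44.8 TPM in gonads and 15.1 and 11.9 TPM in whole worms. The small APC16-type subunit gene *emb-1* had 4.89 and 4.87 CPM in gonads against 1.02 and 0.813 CPM in whole worms, 5.34-fold apart. Its whole-worm level rests on 22 and 21 counts. The log2 fold change of *emb-1* was 2.42 ± 0.32 (SE), or 1.92 with limma on the deposited log2 table.

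Of the 10 genes, 4 lie on chromosome II, 4 on chromosome III, 1 on chromosome I and 1 on chromosome V, with 0 on X, where 7.73% of the 1966 tested genes were gonad-enriched. On the autosomes that carry members this share was between 23.1% (V) and 44.4% (I). *gfi-3* was the only further subunit on X.

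The spindle checkpoint holds the complex back by binding *fzy-1* protein until chromosomes are attached. All 11 checkpoint genes were gonad-enriched, as were 30.9% of all tested genes. Their median log2 fold change was 5.01, where all tested genes had -1.50. The kinase gene *bub-1* (649 and 672 CPM in gonads, with 7.92 and 8.44 CPM in whole worms) differed by 6.33 ± 0.17 (SE), and the MAD2 gene *mdf-2* by 6.05 ± 0.20. *mdf-2* had 33 and 31 counts in the whole-worm libraries, and its value was 5.59 with limma on the deposited log2 table. Other genes cover 3.85% of the *mdf-2* exon length on the same strand and 4.49% on the opposite strand. The MAD3-type gene *san-1* differed by 5.44 ± 0.23, with 22 and 58 counts in the whole-worm libraries. Its value was 4.996 without whole-worm replicate 1, 6.13 without whole-worm replicate 2 and 5.14 with limma on the deposited log2 table. An opposite-strand gene covers 12.15% of the *san-1* exon length. *bub-3* differed by 3.92 ± 0.16. The MAD1 gene *mdf-1* differed least, by 2.02 ± 0.14, with 97.3 and 85.5 CPM in whole worms. *pch-2*, which remodels MAD2-type proteins, had 39.5 and 40.2 CPM in gonads against 0.463 and 0.619 CPM in whole worms, the latter from 10 and 16 counts.

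The targets of the complex and the anaphase genes downstream of it were higher in gonads as well. Of 11 listed genes 10 were analysed, *cya-1* not being analysed here, and all 10 were gonad-enriched, at a median of 6.19 on the log2 scale, beside 30.9% and a median of -1.50 over all tested genes. The B-type cyclin gene *cyb-3* was the most abundant, with 1605 and 1928 CPM in gonads against 18 and 20.9 CPM in whole worms. *cyb-1* differed by 7.11 ± 0.18 (SE), and the closely related *cyb-2.1* and *cyb-2.2* by 7.81 ± 0.21 and 7.90 ± 0.19. Reads of the latter pair may be split between them in counting, so their single values are uncertain. The securin gene *ify-1* had 253 and 257 CPM in gonads against 4.35 and 4.33 CPM in whole worms, and the separase gene *sep-1* had 286 and 259 CPM against 8.71 and 10.5 CPM. The cohesin kleisin genes, whose products separase cuts or that hold chromosomes in meiosis, differed by 5.32 (*coh-3*) to 6.53 (*scc-1*, 5.93 with limma on the deposited log2 table). In whole worms all 10 kept between 0.417% and 3.53% of the gonad level, a range that takes in *fzy-1* and *apc-10* and none of the other 8 genes of the complex.

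Genes of G1 and of cell cycle exit, among them partners of *fzr-1*, were mixed. Of 9 genes, 7 were gonad-enriched, 1 was higher in whole worms and 1 was in neither class, with a median log2 fold change of 3.03. Of all tested genes, 30.9% were gonad-enriched and 53.1% were higher in whole worms by the same rule. *lin-35* had 140.2 and 131 CPM in gonads against 15.9 and 15.7 CPM in whole worms, a difference of 3.10 ± 0.14 (SE), unlike the 0.80 of *fzr-1*. The CDK inhibitor gene *cki-1*, which holds somatic cells in G1, went the other way. It had 3 and 7 counts in the gonad libraries, or 0.142 and 0.313 CPM, while whole worms had 5.33 and 5.77 CPM, a log2 fold change of -4.56 ± 0.41 that became -4.08 without gonad replicate 1 and -5.22 without gonad replicate 2, and -3.47 with limma on the deposited log2 table. Its neighbour and relative *cki-2* was higher in gonads by 3.03 ± 0.18. The G1 kinase gene *cdk-4* had 14 and 11.9 CPM in gonads against 11.7 and 11.6 CPM in whole worms and did not pass the test (adjusted p = 0.435, edgeR's quasi-likelihood test). The ubiquitin ligase genes *cul-1* and *lin-23*, which belong to SCF, the other cell cycle ligase, differed by 1.60 ± 0.13 and 2.06 ± 0.13. The largest differences toward gonads in this list were those of *cye-1* (4.42 ± 0.15) and *cdk-2* (4.39 ± 0.15). *cyd-1* differed by 3.25 ± 0.35, with 10 and 16 counts in the whole-worm libraries.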

How the data were processed

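Total RNA was depleted of ribosomal RNA and amplified as cDNA (Ovation RNA-Seq V2), per the labels' protocols. The authors deposited raw whole-number counts per gene and a normalized log2 table. The deposited log2 values matched, within 5e-05, log2(scaled count + 8), with each library scaled to the mean total. For the aligner, counting program, strand setting and genome build: not given in the sources used here. Of 20182 rows, 1 repeated another gene's counts and was left out. Names, coordinates and exon lengths come from Ensembl release 115 (WBcel235), which matched 19513 rows and may not be the authors' annotation. TPM used those rows and the union of exons.

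Counts were tested with edgeR 4.0.16 (R 4.3.3; TMM, filterByExpr with minimum count 10 and minimum total 15, robust quasi-likelihood fit, group as the only term) with Benjamini-Hochberg adjustment over all 13101 tested genes. The procedure was also run on simulated counts in which few genes were changed. Most tested genes differed in the real data, so that run does not bear on how libraries were scaled. Enriched genes had a fold of 2 or more besides an adjusted p under 0.05, and SE came from the F statistic. A count of 3, the limit that a count of 0 allows, is 0.116 to 0.142 CPM. Replicates differed beyond sampling noise (chi-square per degree of freedom 18.9 in gonads and 16.9 in whole worms), so each library was counted. Amplified reads carry no molecular identifiers and are not independent molecules, so intervals and limits cover counting error only. The members, the pathway and marker lists and the tests were chosen with earlier results of these data known. All members are named, and list genes are named as examples. Alternatives were RLE factors, library totals, no count filter, DESeq2 1.42.0, limma 3.58.1 on the deposited log2 table, a replicate block, leaving out each library, other fold minimums and another gene length.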

Additional observations from a re-analysis of the deposited data

How the results depend on the processing

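The 10 genes kept their direction and their side of the threshold under all 10 alternative fits, and 9 of 10 were gonad-enriched in each, leaving out any library included. Ranges of the log2 fold change were 6.07 to 6.41 for *fzy-1*, 4.79 to 5.79 for *apc-10*, 1.15 to 1.43 for *mat-1* and 0.64 to 0.89 for *fzr-1*. With no fold minimum 10 of 10 were higher in gonads, and with a minimum of 4-fold it was 6. The replicate number as a block gave 9 of 10 and 4019 gonad-enriched genes against 4043. The labels do not say that the numbers pair the samples (correlation of same-number deviations across genes 0.218). The median over all genes was -1.66 with library totals, -1.42 with RLE factors, -1.34 with limma on the deposited log2 table and -2.15 with no count filter, against -1.50. TMM, RLE factors and library totals gave similar medians, so these fits cannot test the scaling itself. The log2 fold changes of *fzr-1* (0.80) and *mat-1* (1.31) are smaller in size than the median of -1.50, so their direction depends most on the scaling. With the longest transcript as gene length, *emb-27* in whole worms had 11.6 TPM and *fzy-1* in gonads 307 TPM, each a shift beyond the spread between replicates, which is narrow for both. Depth limits *apc-10* most, at 12 counts per whole-worm library. With 2 libraries a group, the permutation test of a ratio cannot pass 0.05.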
